A study of Mus musculus with 8 samples.

Results

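The 10 genes described here encode the peptide-presenting side of MHC class I, and all 10 were lower in Plpp1 knockout CD8+ T cells than in controls. They are the classical heavy chain genes H2-K1 and H2-D1, the light chain gene B2m, the peptide loading genes Tap1, Tap2 and Tapbp, the immunoproteasome subunit genes Psmb8, Psmb9 and Psmb10, and the transcriptional regulator gene Nlrc5. The members were chosen by name, as the rows of the count table that carry these symbols. They make up 10 of its 49492 genes, and earlier results of these data were known when they were chosen. Each of the 10 passed the filter on low counts, which left 17940 genes for testing.

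RNA was sequenced from CD8+ T cells taken with CD8a beads from subcutaneous B16 tumours, a mouse melanoma line, on day 14 in mice described as female. The knockout libraries, KO1 to KO4, came from Lckcre-PLPP1fl/fl mice, in which Cre driven by Lck acts in T-lineage cells. The control libraries, WT1 to WT4, came from PLPP1fl/fl mice, so both genotypes carried the floxed alleles, and Cre was named for the knockouts alone. Plpp1 encodes a phosphatase of phosphatidic acid and related lipids. The sources used here do not give the age of the mice. Nor do they tie each library to its own mouse, so the p-values reflect library-to-library spread that could be technical.

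Class I molecules show fragments of a cell's own proteins to CD8+ T cells, and T cells carry these molecules themselves. Proteasomes cut proteins into peptides, the TAP transporter moves the peptides into the endoplasmic reticulum, and tapasin helps load them onto a heavy chain paired with beta-2-microglobulin. Interferons raise most of these genes, in part through IRF1, and replace the catalytic subunits of the standard proteasome with those of the immunoproteasome. NLRC5 is the class I transactivator, which has no DNA-binding domain of its own and acts with RFX, NF-Y and ATF1 or CREB1 at class I promoters.

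Total counts ran from 44118131 to 57716522 in knockouts and from 49856353 to 61999941 in controls. Plpp1 itself was at 0.498 ± 0.14 CPM (counts scaled to library size) in knockouts and 0.892 ± 0.18 in controls (SD, n = 4 each), with overlapping ranges, so low-level counts remained in every knockout library. Its log2 fold change, knockout over control, was -0.84 (SE 0.26, edgeR's quasi-likelihood test, adjusted p = 0.0064). This rests on only 18 to 62 counts per library. The 4 Y-linked genes Ddx3y, Eif2s3y, Kdm5d and Uty summed to between 190 and 203 CPM in each knockout library, against 0.0974 to 0.244 CPM in the controls. Xist stood at 51.1 ± 4.4 CPM in knockouts and 747 ± 27 CPM in controls (SD, n = 4 each). These values go against the description of all mice as female, and genotype cannot be told apart from sex-chromosome expression in any comparison below. Cd8a was at 239.5 ± 7.8 CPM in knockouts and 331 ± 5.4 CPM in controls (SD, n = 4 each). Cd4 was at 1.52 ± 0.096 CPM in knockouts and 2.32 ± 0.16 CPM in controls.

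All 10 members fell in knockouts (edgeR's quasi-likelihood test, with a gene called at a p under 0.05 after Benjamini-Hochberg adjustment over all tested genes). Of all tested genes 31.6% were called lower and 64.3% were called in either direction, so a call for a single gene was common in these libraries. The members' log2 fold changes, knockout over control, ran from -0.72 to -0.20 with a median of -0.41, against a median of -0.01 over all genes tested. None of the 10 changed by 2-fold, and 24.1% of all tested genes had a larger absolute log2 fold change than Nlrc5, the member that fell most. In 9 of the 10 the knockout and control libraries did not overlap, where 58.3% of all tested genes did not overlap in either direction and 28.2% did so with the knockouts lower.

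**Figure D1:**
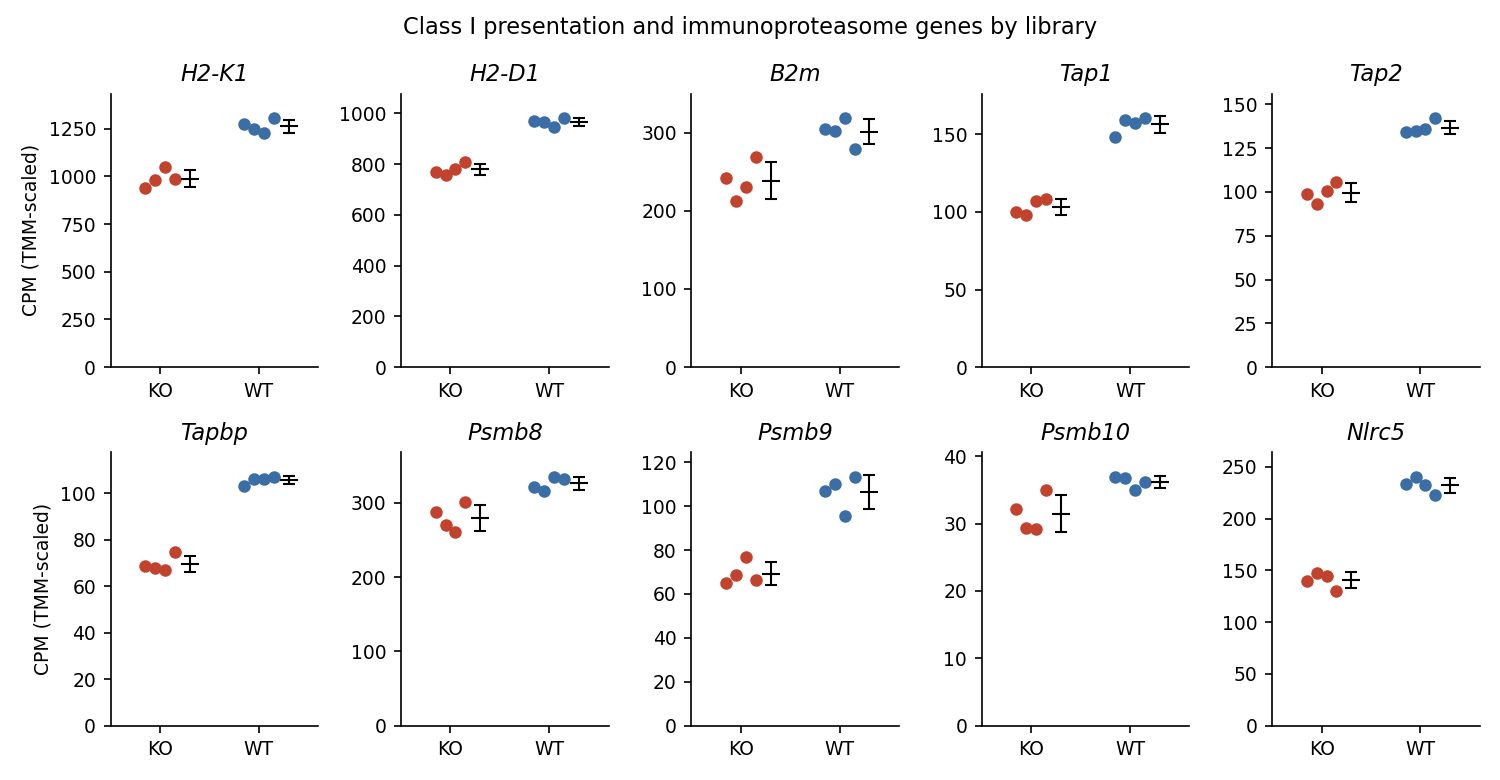
CPM (TMM-scaled, linear axis from 0) of the 10 members in each of 4 KO and 4 WT libraries, with the mean and SD beside the points. Every KO library lies below every WT library in 9 of the genes, and in Psmb10 the highest KO library (35.0 CPM) just passes the lowest WT library (34.9 CPM).

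Nlrc5, the regulator, fell most. On GRCm38 the gene occupies chromosome 8, bases 94434356 to 94527272, plus strand. Its levels were 140, 148, 145 and 130 CPM in KO1 to KO4, against 234, 240, 232 and 223 CPM in WT1 to WT4. Every knockout library lay far below the lowest control. Knockouts stood at 60.6% of the control mean, with a log2 fold change of -0.72 (SE 0.047, edgeR quasi-likelihood, adjusted p = 4.3e-12). The 4 genes most like Nlrc5 over the 8 libraries, by Euclidean distance between mean-centred log2 CPM, were Whsc1l1, Fam13b, Atf7ip and Ablim1, at distances of 0.0705 to 0.0848.

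The genes for the chains of the surface molecule fell by 0.31 to 0.35 on the log2 scale. H2-K1, a classical heavy chain gene at bases 33996017 to 34000333 of chromosome 17 on the minus strand, stood at 939, 980, 1049 and 987 CPM in knockouts and at 1274, 1247, 1228 and 1305 CPM in controls. The highest knockout, KO3, remained below the lowest control, WT3. This gave a log2 fold change of -0.35 (SE 0.047, edgeR quasi-likelihood, adjusted p = 7.0e-07). H2-D1, the other classical heavy chain gene among the members, lies at bases 35262730 to 35267499 of the same chromosome on the plus strand. It stood at 770, 759, 781 and 810 CPM in knockouts and at 972, 966, 947 and 981 CPM in controls, again without overlap. H2-D1 changed by -0.31 on the log2 scale (SE 0.044, edgeR quasi-likelihood, adjusted p = 1.9e-06). B2m, the gene of the invariant light chain, lies at bases 122147686 to 122153083 of chromosome 2, plus strand. It stood at 243, 213, 231 and 269 CPM in knockouts and at 305, 302, 318 and 280 CPM in controls, with KO4 and WT4 the closest pair. B2m changed by -0.34 on that scale (SE 0.060, edgeR quasi-likelihood, adjusted p = 5.0e-05).

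Ratios between heavy and light chain RNAs did not differ detectably between genotypes. Per kilobase of exon, H2-K1 counts were 1.37 times those of B2m in knockouts and 1.38 times in controls. The log2 ratio differed by -0.02 (SE 0.10, exact permutation p = 0.89, n = 4 each). H2-D1 counts were 1.09 times those of B2m in knockouts and 1.07 times in controls, a difference of 0.03 (SE 0.072, exact permutation p = 0.66). For H2-K1 over H2-D1 the ratios were 1.25 in knockouts and 1.29 in controls (difference -0.05, SE 0.036, exact permutation p = 0.29). Such p-values do not show that the ratios were equal. The heavy chain genes resemble other class I genes, and 9.63% of the 50-base words in H2-K1 transcripts and 12.8% of those in H2-D1 transcripts also occur in transcripts of other genes (GENCODE M21). Reads from such stretches may be divided or dropped, so the levels of both are uncertain to that extent. No such word was found for B2m.

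Sequence upstream of the start was searched for short cores of elements known to regulate class I genes. The H2-K1 and B2m windows below are shown because they matched different cores in the exact spellings searched. In those spellings H2-K1 held the NF-kappaB core and B2m the interferon core, while both held the Y box. Either window may still hold the other element in a form that was not searched, which would not be capitalised. Both windows come from RefSeq on GRCm38.p6 and end at the start of transcription as the count table places it. The H2-K1 window is chr17:34000334-34000583 (minus strand) and the B2m window is chr2:122147437-122147685 (plus strand). Capitals mark the kappaB core and both CCAAT boxes in H2-K1, and the interferon-stimulated response element (ISRE) core and the CCAAT box in B2m, the box reading ATTGG where it lies on the other strand.
H2-K1: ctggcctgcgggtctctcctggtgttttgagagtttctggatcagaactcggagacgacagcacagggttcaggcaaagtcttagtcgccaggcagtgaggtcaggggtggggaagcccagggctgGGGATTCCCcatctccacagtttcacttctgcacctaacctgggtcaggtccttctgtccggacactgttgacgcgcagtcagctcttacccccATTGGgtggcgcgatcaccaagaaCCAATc
B2m: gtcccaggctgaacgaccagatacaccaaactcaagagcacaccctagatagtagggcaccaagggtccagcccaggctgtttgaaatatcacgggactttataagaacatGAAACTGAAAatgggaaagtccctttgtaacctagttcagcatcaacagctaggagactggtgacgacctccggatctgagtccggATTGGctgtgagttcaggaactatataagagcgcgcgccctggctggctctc

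H2-D1 carried the same kappaB core as H2-K1. The H2-D1 site lies before its RefSeq start but within the first stretch of exon that the count table gives the gene. The sites are set side by side to show how far the paralogs match around it, with the core in capitals, at chr17:34000438-34000467 (minus strand) for H2-K1 and chr17:35262914-35262943 (plus strand) for H2-D1.
H2-K1: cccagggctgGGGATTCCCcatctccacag
H2-D1: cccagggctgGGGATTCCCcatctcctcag
Of these 30 bases 29 were identical.

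Windows before a RefSeq start were matched for 8 of the 10 members. Those of H2-D1, Psmb8 and Psmb9 lie wholly within exons that the count table gives these genes, that of Tap1 lies within Psmb9 exons, and that of Tapbp within exons of Tapbp and its neighbours, so they are upstream of 1 annotated start and not of every one. Of the 8, 2 held the kappaB core GGGANTNCC (H2-K1 and H2-D1), which occurs in 3.36% of all 32851 windows of 250 bases. The ISRE core, taken as GAAA, any 2 bases and GAAA again, was held by B2m alone among them, against 2.98% of all windows, and the GAS core TTCNNNGAA by Psmb8 alone, against 7.02%. The Y box CCAAT, which NF-Y binds, occurred in 6 of the 8, against 33.9% of all windows. The windows of Tap1 and Psmb9 overlap, and the box counted for both is the same one, shown in capitals at chr17:34187322-34187351 on the plus strand.
Tap1 and Psmb9: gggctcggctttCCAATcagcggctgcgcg
Both strands were searched, and the cores marked in the windows above do not overlap each other. The 2 matched constitutive proteasome genes, Psmb5 and Psmb6, held none of the 4 cores. Such matches describe letters in a window and say nothing of binding in these cells. Only these spellings were searched, so a window without a match may still hold an element in another form.

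The peptide transport and loading genes fell by 0.46 to 0.60 on the log2 scale, and their difference from the chain genes was not tested. Tap1 and Tap2 encode the paired chains of the peptide transporter and lie on the plus strand of chromosome 17, at bases 34187553 to 34197225 and 34203527 to 34216321. Tap1 stood at 100.2, 97.7, 107 and 109 CPM in knockouts and at 148, 159, 157 and 160.2 CPM in controls. Tap2 stood at 99.0, 93.2, 100.4 and 106 CPM in knockouts and at 134, 135, 136 and 142 CPM in controls. In both genes the highest knockout was well under the lowest control. Their log2 fold changes were -0.60 (SE 0.046, adjusted p = 8.1e-11) for Tap1 and -0.46 (SE 0.045, adjusted p = 6.1e-09) for Tap2 (edgeR quasi-likelihood). Tapbp encodes tapasin, which bridges the transporter and the heavy chain, and lies on the same chromosome and strand at bases 33915899 to 33929288. It stood at 68.9, 67.8, 66.9 and 74.6 CPM in knockouts and at 103, 106, 106 and 107 CPM in controls. Knockouts thus held 65.8% of the control mean (log2 fold change -0.60, SE 0.044, edgeR quasi-likelihood, adjusted p = 3.7e-11).

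Because Tap1 and Tap2 proteins pair with each other, their RNA ratio was compared within libraries. Per kilobase, Tap1 was at 0.698, 0.724, 0.734 and 0.708 of Tap2 in KO1 to KO4, against 0.763, 0.815, 0.799 and 0.779 in WT1 to WT4. The groups did not overlap, and the log2 ratio differed by -0.14 (SE 0.026, exact permutation p = 0.0286, adjusted p = 0.0571 over 8 ratios). An exact p of 0.0286 is the smallest that 4 against 4 libraries allow, and the adjusted value misses 0.05. Some exons are shared with other genes, which makes these levels uncertain where the counting ignored strand, which no source used here states. Tap1 shares 212 exonic bases with Psmb9 on the opposite strand, and Tapbp shares 665 with Gm19412 (20.2% of its length). Tap2 shares 533 with Gm15821 (14.1%) and 165 with Gm20496 (4.36%).

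The immunoproteasome subunit genes fell by 0.20 to 0.62 on the log2 scale. Psmb9 encodes the inducible beta-1 subunit, is transcribed away from Tap1 on the minus strand, and lies at bases 34181988 to 34187764 of chromosome 17. It stood at 65.1, 68.7, 76.8 and 66.5 CPM in knockouts and at 107, 110.3, 95.3 and 113 CPM in controls. Knockouts stood at 65.0% of the control mean, a log2 fold change of -0.62 (SE 0.057, edgeR quasi-likelihood, adjusted p = 4.6e-09), with KO3 the highest knockout and WT3 the lowest control. Psmb8, the inducible beta-5 subunit gene at bases 34197721 to 34201454 of the same chromosome and the plus strand, stood at 287, 270.5, 260.3 and 301 CPM in knockouts and at 321, 316, 335 and 332 CPM in controls. The groups did not overlap, with KO4 and WT2 the closest pair. Psmb8 thus changed by -0.22 on the log2 scale (SE 0.049, edgeR quasi-likelihood, adjusted p = 0.00036). Psmb10, the inducible beta-2 subunit gene on chromosome 8 (bases 105935735 to 105938444, minus strand), stood at 32.1, 29.4, 29.3 and 35.0 CPM in knockouts and at 36.9, 36.8, 34.9 and 36.2 CPM in controls. KO4 and WT3 overlapped, and the log2 fold change came to -0.20 (SE 0.056, edgeR quasi-likelihood, adjusted p = 0.0027). The log2 ratio of Psmb9 to Psmb8 differed by -0.40 (SE 0.12, exact permutation p = 0.0571, adjusted p = 0.0914), so the larger fall of Psmb9 did not pass this test.

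The constitutive subunits that these genes replace moved the other way. Psmb5, the standard beta-5 subunit gene, stood at 77.2, 80.7, 76.2 and 87.5 CPM in knockouts and at 49.7, 52.1, 52.5 and 60.2 CPM in controls. Every knockout library was above every control, which gave a log2 fold change of 0.58 (SE 0.057, edgeR quasi-likelihood, adjusted p = 9.1e-09). Psmb7, the standard beta-2 subunit gene, averaged 177 ± 8.3 CPM in knockouts and 135 ± 3.2 CPM in controls (SD, n = 4 each), a rise of 0.39 on the log2 scale (SE 0.045, edgeR quasi-likelihood, adjusted p = 5.1e-08). Psmb6, the standard beta-1 subunit gene, averaged 84.7 ± 5.8 CPM in knockouts and 70.6 ± 1.2 CPM in controls (SD, n = 4 each). It rose by 0.26 (SE 0.048, edgeR quasi-likelihood, adjusted p = 4.7e-05).

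Within a library, a ratio of an inducible subunit to its standard counterpart does not depend on how libraries are scaled. Per kilobase, Psmb8 was at 1.18, 1.07, 1.09 and 1.09 times Psmb5 in KO1 to KO4, against 2.06, 1.93, 2.03 and 1.76 times in WT1 to WT4. The log2 ratio differed by -0.81 (SE 0.062), and knockout ratios lay closer to 1. Psmb8 shares 186 exonic bases (6.80% of its length) with Gm20496 on the opposite strand, and Psmb5 shares 109 (12.5%) with Mir686 on the same strand. Psmb7 shares 405 (11.8%) with Nek6 on the opposite strand. The levels behind these ratios are uncertain to that extent. Psmb9 was at 0.395, 0.431, 0.492 and 0.367 of Psmb6 in knockouts, against 0.768, 0.819, 0.682 and 0.819 in controls, a log2 difference of -0.88 (SE 0.11). Psmb10 was at 0.353, 0.338, 0.352 and 0.380 of Psmb7 in knockouts, against 0.540, 0.565, 0.525 and 0.529 in controls, a log2 difference of -0.60 (SE 0.042). In all 3 pairs each knockout library lay below each control. Each gave an exact permutation p of 0.0286 (n = 4 each), the smallest possible, and an adjusted p of 0.0571 over the 8 ratios, which misses the threshold.

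**Figure D2:**
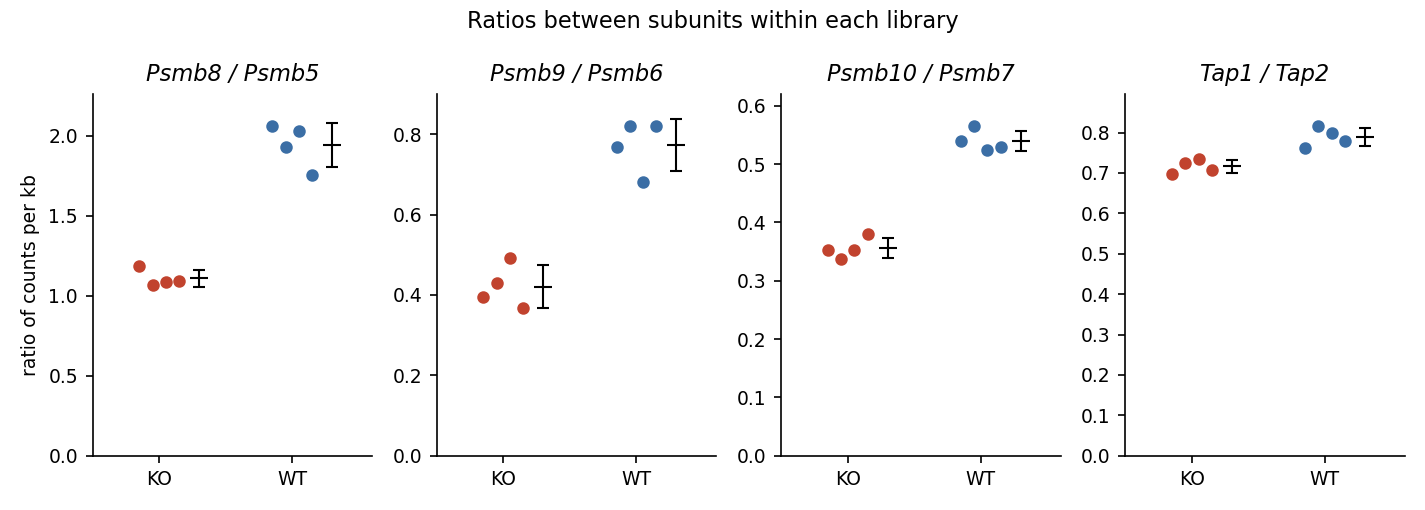
Ratios of counts per kilobase of exon (linear axes from 0) in each of 4 KO and 4 WT libraries for the 3 inducible to constitutive subunit pairs and for Tap1 over Tap2, with the mean and SD of the 4 ratios. The KO points lie below the WT points in every panel, with Psmb8 over Psmb5 at 1.07 to 1.18 in KO and 1.76 to 2.06 in WT.

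Most other core subunit genes rose too. Of 11 alpha and structural beta subunit genes 10 rose, 0 fell and 1 did not pass, with a median log2 fold change of 0.32 against -0.01 over all genes tested, where 32.8% were called higher. Psma5 and Psma3 rose by 0.62 (SE 0.053) and 0.60 (SE 0.051), and Psmb1 stood at 59.4 ± 2.6 CPM in knockouts and 57.6 ± 2.5 CPM in controls (SD, n = 4 each, edgeR quasi-likelihood, adjusted p = 0.41). Of 9 activator and assembly genes 6 rose, 2 fell and 1 did not pass (median 0.27). Over all tested genes 32.8% were called higher and 31.6% lower, so 2 falls of 9 say little about these genes. The 2 that fell encode the interferon-inducible activator PA28. Psme1, its alpha chain gene, was at 769 ± 51 CPM in knockouts and 937 ± 26 CPM in controls (SD, n = 4 each), a log2 fold change of -0.28 (SE 0.050). Psme2, its beta chain gene, had a log2 fold change of -0.11 (SE 0.047, edgeR quasi-likelihood, adjusted p = 0.040), a call that ended with DESeq2 (adjusted p = 0.057). The Psme2 call also ended without KO1, KO2, KO3, WT2, WT3 or WT4, at adjusted p = 0.060 to 0.12, which leaves 1 called fall. Psme3, the nuclear activator gene, rose by 0.55 (SE 0.048) and Psmg3, an assembly chaperone gene, by 1.07 (SE 0.061). Pomp, the gene of the proteasome maturation factor, rose by 0.27 (SE 0.042). Psmg4, another assembly chaperone gene, was the one that did not pass (log2 fold change -0.15, edgeR quasi-likelihood, adjusted p = 0.12), and was called lower without KO4 (-0.25, adjusted p = 0.0035).

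**Figure D3:**
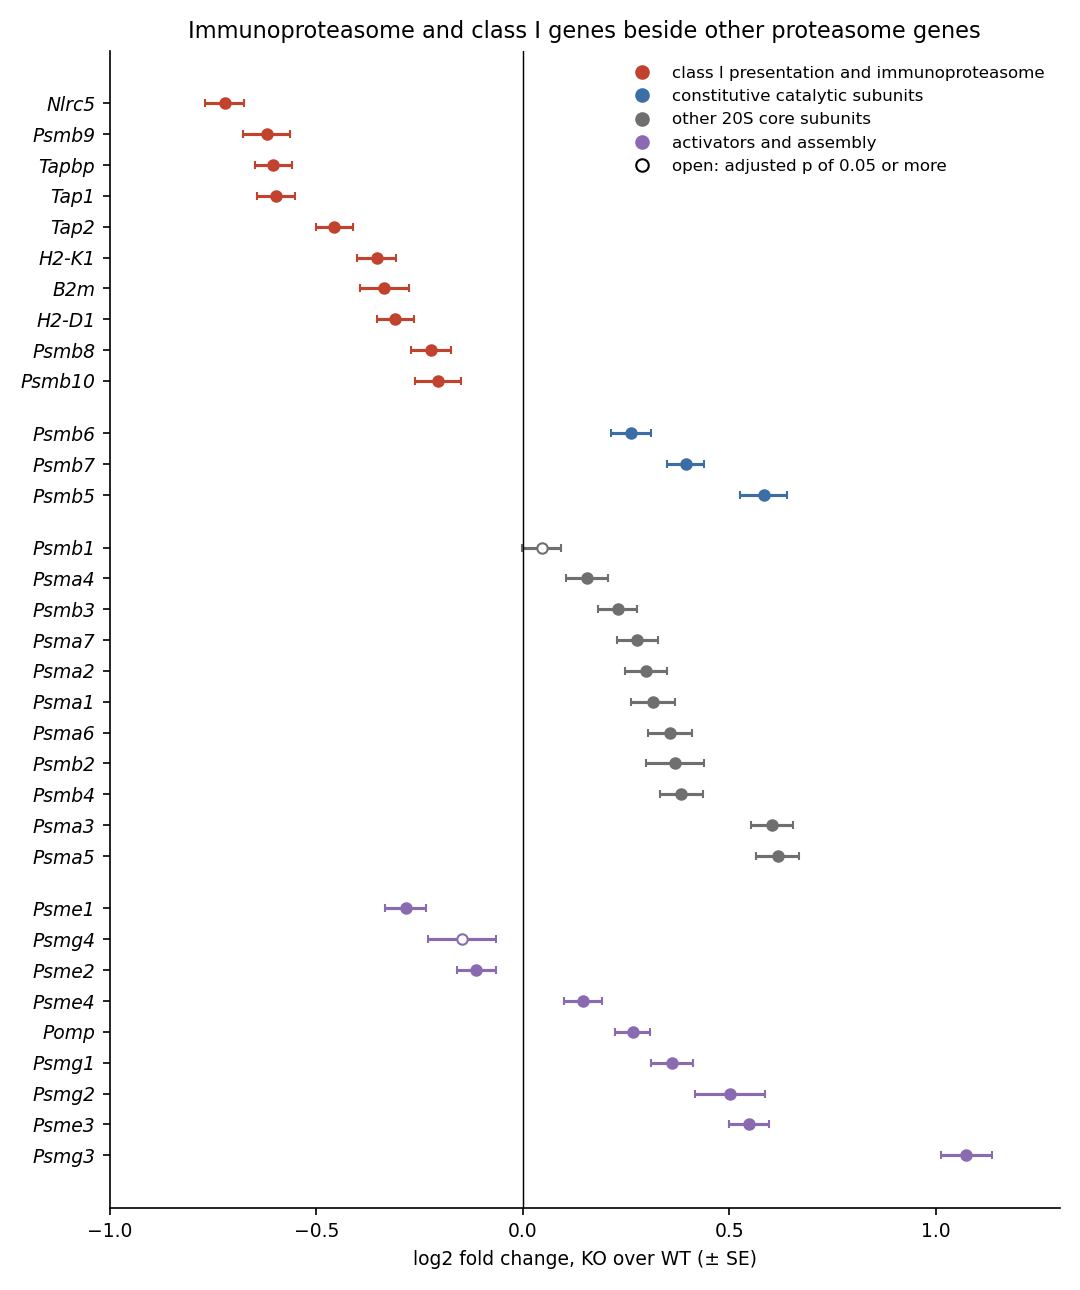
Log2 fold change (KO over WT, ± SE, n = 4 each) of the members, the 3 constitutive catalytic subunits, 11 other core subunits and 9 activator or assembly genes, with open points where the adjusted p is 0.05 or more. The 10 members lie between -0.72 and -0.20, while the constitutive catalytic subunits lie between 0.26 and 0.58.

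Partners in loading and trimming did not follow the members as a group. Of 10 genes 5 rose, 4 fell and 1 did not pass, with a median log2 fold change of 0.09. Over all tested genes 32.8% were called higher and 31.6% lower. Calr, the chaperone calreticulin of the loading complex, stood at 2197 ± 53 CPM in knockouts and 2107 ± 112 CPM in controls (SD, n = 4 each, edgeR quasi-likelihood, adjusted p = 0.29). Canx, the chaperone calnexin, rose by 0.15 (SE 0.046). Pdia3, the disulfide isomerase of the loading complex, had a log2 fold change of 0.12 (SE 0.049, adjusted p = 0.043), a call lost under 5 alternatives of scaling, filter or counting and without KO1, KO4, WT1, WT2 or WT4, at adjusted p = 0.055 to 0.17. Erap1, which trims peptides in the endoplasmic reticulum, and Tapbpl, a tapasin-related peptide editor, both fell by 0.17 (SE 0.048 and 0.042). Thop1, a cytosolic peptidase that destroys class I ligands, rose by 1.13 (SE 0.053), to 69.0 ± 2.4 CPM in knockouts against 31.4 ± 2.4 CPM in controls (SD, n = 4 each). Tpp2, a large cytosolic peptidase, rose by 0.44 (SE 0.045).

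Most other class I heavy chain genes fell. Of 16 listed, 14 passed the filter, of which 11 fell, 2 rose and 1 did not pass the test, with a median log2 fold change of -0.55. Among all tested genes 31.6% were called lower and 32.8% higher. H2-Q7, which encodes a Qa-2 molecule, stood at 317, 319, 312 and 317 CPM in knockouts and at 531, 534, 539.9 and 554 CPM in controls. Its log2 fold change of -0.77 (SE 0.042, edgeR quasi-likelihood, adjusted p = 2.0e-13) lay farther from 0 than that of either classical gene. H2-T23, which encodes the Qa-1 ligand of NKG2 receptors, fell by 0.33 (SE 0.044), and Cd1d1, which presents lipids to NKT cells, fell by 1.05 (SE 0.12) at a level of only 2.57 ± 0.48 CPM in knockouts against 5.35 ± 0.057 CPM in controls (SD, n = 4 each). H2-Q10, which encodes a soluble molecule made mainly in liver, rose by 0.74 (SE 0.062), and H2-M3, which presents formylated peptides, by 0.21 (SE 0.057). Mr1, which presents vitamin B metabolites, stood at 5.68 ± 0.29 CPM in knockouts and 6.40 ± 0.81 CPM in controls (SD, n = 4 each, edgeR quasi-likelihood, adjusted p = 0.12), and its log2 fold change was -0.25 without WT3 (adjusted p = 0.023). These genes are close paralogs, so the split of reads among them is uncertain.

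The regulators above the members gave a divided picture. Of 17 interferon and NF-kappaB genes 11 fell, 5 rose and 1 did not pass, with a median log2 fold change of -0.62. Shares over all tested genes were 31.6% called lower and 32.8% called higher. Irf1, the gene of an interferon-induced direct activator of class I genes, stood at 96.0, 89.4, 89.7 and 96.9 CPM in knockouts and at 198, 203, 202 and 198 CPM in controls. The groups lay far apart, with a log2 fold change of -1.11 (SE 0.044, edgeR quasi-likelihood, adjusted p = 4.9e-16). Several receptor and kinase genes fell, with Ifngr1 at -0.49 (SE 0.044), Ifnar1 at -0.99 (SE 0.045), Jak1 at -0.62 (SE 0.043) and Jak2 at -0.71 (SE 0.045). Tyk2, the gene of another kinase of the type I interferon receptor, was the one that did not pass, at 37.2 ± 1.1 CPM in knockouts and 36.6 ± 1.7 CPM in controls (SD, n = 4 each, edgeR quasi-likelihood, adjusted p = 0.70). Ifng, the gene of the inducing cytokine, went the other way, with 24.5, 23.99, 25.4 and 26.8 CPM in knockouts against 1.604, 1.705, 1.12 and 1.81 CPM in controls. Nfkb1, whose product binds kappaB sites such as those printed above, rose by 0.93 (SE 0.045) and Rela, its partner, by 0.25 (SE 0.050). Irf8, another factor of the IRF family, rose by 1.13 (SE 0.056).

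The DNA-bound partners of NLRC5 showed no common direction. Of 8 genes 4 rose, 3 fell and 1 did not pass, with a median log2 fold change of 0.11. Of all tested genes 32.8% were called higher and 31.6% lower, so these counts say little about the partners. Creb1 stood at 112 ± 7.3 CPM in knockouts and 205 ± 3.6 CPM in controls (SD, n = 4 each), a log2 fold change of -0.87 (SE 0.048), while its relative Atf1 rose by 0.31 (SE 0.050). Among the RFX genes, Rfx5 fell by 0.25 (SE 0.059), Rfxap rose by 0.32 (SE 0.061) and Rfxank stood at 19.1 ± 2.0 CPM in knockouts and 17.7 ± 1.6 CPM in controls (SD, n = 4 each). Among the NF-Y genes, Nfya fell by 0.16 (SE 0.042) and Nfyc rose by 0.42 (SE 0.055). Nfyb had a log2 fold change of 0.12 (SE 0.045, edgeR quasi-likelihood, adjusted p = 0.024), a call lost under 3 alternatives of processing and without KO4, WT2, WT3 or WT4, at adjusted p = 0.054 to 0.10.

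**Figure D4:**
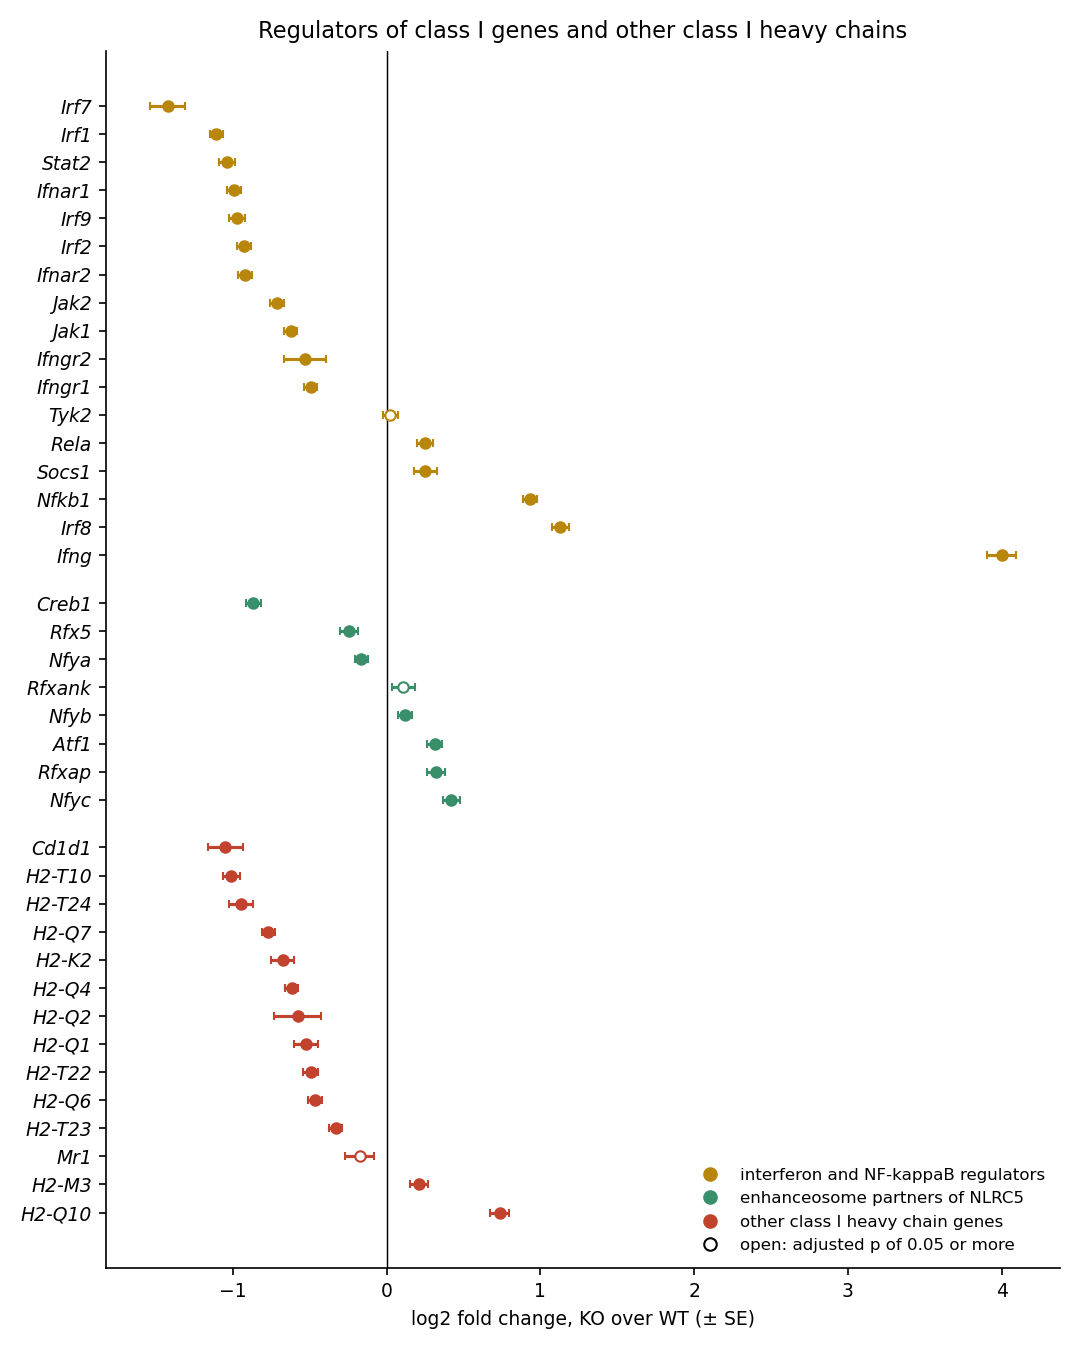
Log2 fold change (KO over WT, ± SE, n = 4 each) of 17 interferon and NF-kappaB regulators, 8 partners of NLRC5 and 14 other class I heavy chain genes, with open points where the adjusted p is 0.05 or more. Irf7 lies at -1.42 and Irf1 at -1.11, whereas Ifng lies at 4.0 and Nfkb1 at 0.93.

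Compared per kilobase of exon, the members covered a wide range of levels. In knockouts H2-K1 was highest at 379 ± 17 CPM per kb, then H2-D1 at 302 ± 8.6, B2m at 277 ± 27 and Psmb8 at 102 ± 6.5 (SD, n = 4). In controls the same genes stood at 484 ± 13, 375 ± 5.6, 350 ± 19 and 119 ± 3.3 CPM per kb. H2-D1 and B2m were within about 1 SD of each other in knockouts. Tap2 followed at 26.4 ± 1.4 CPM per kb in knockouts and 36.2 ± 0.94 in controls, and Tapbp at 21.1 ± 1.1 in knockouts and 32.1 ± 0.50 in controls. These 2 and the other 4 lay between 16.6 and 26.4 CPM per kb in knockouts and between 21.2 and 36.2 in controls. Tap1, Psmb9 and Psmb10 did not differ beyond their SDs in knockouts, at 18.9 ± 0.95, 18.9 ± 1.4 and 18.4 ± 1.6 CPM per kb. Nlrc5 was lowest in knockouts at 16.6 ± 0.92 CPM per kb, and Psmb10 was lowest in controls at 21.2 ± 0.54.

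Most markers of CD8 T cells fell as well. Of 7 CD8 T cell genes 6 fell and 1 rose, with a median log2 fold change of -0.52, where 31.6% of all tested genes were called lower. The summed level of the 7 genes was 1521 to 1667 CPM in knockouts and 1987 to 2034 CPM in controls. Cd3g fell by 0.77 (SE 0.045) and Cd2 rose by 0.37 (SE 0.044). In bulk samples, fewer cells of a type and less RNA per cell cannot be told apart. Macrophage and monocyte markers (10 genes, 6 of them under 1 CPM in every library) summed to 5.33 to 6.04 CPM in knockouts and 6.56 to 7.02 CPM in controls. Dendritic cell markers (7 genes, 4 under 1 CPM) summed to 3.80 to 4.33 CPM in knockouts and 2.74 to 3.19 CPM in controls. B cell markers (6 genes, 4 under 1 CPM) summed to 3.12 to 3.93 CPM in knockouts and 4.92 to 6.44 CPM in controls. Natural killer cell markers (5 genes) summed to 97.9 to 103 CPM in knockouts and 80.3 to 84.2 CPM in controls. Nearly all of this was Klrk1 (54.9 ± 0.60 CPM in knockouts and 56.5 ± 0.51 CPM in controls, not called) and Eomes (43.4 ± 2.4 CPM in knockouts and 24.4 ± 2.0 CPM in controls), which CD8 T cells also express, while Ncr1 and Klra8 were under 1 CPM in every library. CD4 T cell markers (3 genes) summed to 31.5 to 35.1 CPM in knockouts and 35.8 to 37.9 CPM in controls. Stromal and endothelial markers (6 genes, 5 under 1 CPM) summed to 25.1 to 30.5 CPM in knockouts and 99.4 to 112 CPM in controls. Nearly all of this was Pecam1 (28.0 ± 2.3 CPM in knockouts and 105 ± 5.1 CPM in controls). That sum follows a single gene and does not measure these cells. The pigment genes Tyr, Tyrp1 and Mlana were at 0 counts in all 8 libraries. The 7 melanoma markers summed to 5.30 to 6.56 CPM in knockouts and 17.9 to 19.4 CPM in controls. Most of this was Pmel (4.32 ± 0.45 CPM in knockouts and 16.9 ± 0.93 CPM in controls), so that sum also mainly follows a single gene. The part of these cell types in the members' fall was not tested.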

How the data were processed

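The authors deposited raw read counts per gene for 8 libraries, with gene symbols, exon coordinates and exonic lengths. The submitters' processing notes name Trimmomatic 0.36, featureCounts (Subread 1.5.1) and the build GRCm38. Per the labels' protocols, libraries were stranded and polyA-selected, from TRIzol RNA. Aligner, annotation release and strand setting: not given in the sources used here. Among genes with 1 to 10 counts, 85.7% to 87.7% had an even count, as when both mates of a pair are counted; halving the counts was therefore an alternative.

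The test was edgeR 4.0.16 (limma 3.58.1, R 4.3.3) on the counts, after filterByExpr and TMM scaling, by the robust quasi-likelihood F test, two-sided, with Benjamini-Hochberg adjustment over 17940 genes. SE is the absolute log2 fold change over the square root of F, and CPM uses TMM-scaled library sizes. Where a gene is at 0, 3 counts (0.0484 to 0.068 CPM) limit its level, for counting error only. Ratios of counts per kilobase were compared by a two-sided exact permutation test over libraries, adjusted over 8 ratios. DESeq2 1.42.0 and other scalings, no filter, halved counts, a replicate block and leaving out each library were alternatives. Library pairs differed by 1.66 to 4.45 times sampling noise within a genotype, so none was treated as a repeat.

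Motif cores searched on both strands of the 250 bases before each RefSeq start were ISRE (GAAA, any 2 bases, GAAA), GAS TTCNNNGAA, kappaB GGGANTNCC and Y box CCAAT. The members and gene lists were chosen with earlier results of these data known. Named genes are the members, genes of these lists, and up to 5 genes (mean CPM at least 10) most like the member of largest change, predicted genes left out. Some genes these rules name are not reported here.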

Additional observations from a re-analysis of the deposited data

Results flagged for a closer look

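Groups of 4 libraries were examined for the members, the tested proteasome, loading, heavy chain, NLRC5 partner and regulator genes, and the ratios. Other genes named here, such as class II genes and cell type markers, were left out. Of the 180 groups examined, 5 held a library far from the other 3, where chance flags about 1 in 20 groups. None was a member or a ratio. Among knockouts, H2-Q6 stood at 373 CPM in KO4 against 406 to 411 CPM in the others, H2-Q2 at 1.06 CPM in KO1 against 1.305 to 1.34 CPM, and Rfxank at 22.02 CPM in KO1 against 18.0 to 18.4 CPM. Among controls, Canx stood at 1006 CPM in WT1 against 919 to 933 CPM in the others, and Rela at 38.6 CPM in WT4 against 36.2 to 36.6 CPM.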

How the results depend on the processing

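Each of the 10 members kept its direction and stayed past the threshold under all 16 alternatives, with log2 fold changes from -0.75 to -0.17 over members and alternatives and a largest adjusted p of 0.015. The count of all called genes, 11542, ran from 11010 to 11556 when a library was left out, and was 11516 with the replicate block, which ended the calls of Pdia3 (adjusted p = 0.0501) and H2-Eb1 (adjusted p = 0.0516) and changed no other call among the members and listed genes. Same-numbered libraries of KO and WT hardly deviated together (correlations of 0.0049 to 0.057). Such low values cannot show whether these libraries shared any handling, and that was not tested. With the replicate numbers as pairs, a sign-flip test of the ratios cannot pass the threshold, so 0 of 8 passed, as in the unpaired test. Of 4 KO libraries 1 correlated best with its own number, and of 4 WT libraries 2. The following uncalled values changed sign, and the cause was not tested. Tyk2 was at -0.00823 with upper quartile scaling, at -0.00984 without WT1, and up to 0.0389 without another library. The H2-K1 to B2m difference ran from -0.0650 to 0.0438 with a library left out (0.0190 without KO1, 0.0358 without WT4), and that of H2-D1 to B2m from -0.0105 to 0.0727 (-0.00666 without WT3). Depth set no limit on the members, whose lowest count in a library was 1346.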

Other observations

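Class II presentation genes, which T cells of mice express little, split into groups. The chain genes H2-Aa, H2-Ab1 and H2-Eb1 and the invariant chain gene Cd74 rose, with Cd74 at 9.07 ± 1.1 CPM in knockouts and 7.05 ± 0.54 CPM in controls (SD, n = 4 each). The peptide exchange genes H2-DMa, H2-DMb1 and H2-DMb2, which lie on chromosome 17 as do the chain genes that rose, fell by 1.16, 0.91 and 0.73 on the log2 scale. H2-DMa stood at 4.42 ± 0.83 CPM in knockouts and 9.92 ± 0.58 CPM in controls (SD, n = 4 each). Of the 8 listed genes 4 rose, 3 fell and 1, the class II transactivator gene Ciita, did not pass (edgeR's quasi-likelihood test, as for the members). Over all tested genes 32.8% were called higher and 31.6% lower. The summed level of the 8 genes was 29.2 to 34.1 CPM in knockouts and 33.1 to 35.1 CPM in controls. The H2-Eb1 call (log2 fold change 0.31, edgeR quasi-likelihood, adjusted p = 0.047) held only with DESeq2 size factors and without WT4, and the adjusted p reached 0.15 under the other alternatives.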
